A study of Drosophila melanogaster with 2 samples.

Results

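The cytoplasmic ribosome is built from a small (40S) and a large (60S) subunit, and each of its proteins is encoded in Drosophila by a separate gene. Genes of this family were taken by symbol from the list of genes in the count tables, as those that start with RpL or RpS and a digit or with RpLP, plus sta, the gene of the small subunit protein also called RpSA. Mitochondrial ribosomal protein genes (mRpL and mRpS) were not taken. This gave 93 genes of the 17753 genes counted, 54 with a large subunit symbol and 39 with a small subunit symbol. The rule uses symbols only.

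Ribosomal protein mRNAs are among the most abundant of a growing cell, and the proteins are needed in matched amounts, so that loss of 1 gene copy of many of them gives the slow growth and thin bristles of the Minute flies. Some genes of the family have a copy elsewhere in the genome (a paralog), and several of these copies are known in flies for use in the germline. Medulla neuroblasts (NBs), the stem cells of the optic lobe, divide many times in the larva while they express a series of transcription factors, from Hth in the youngest to Tll and then Gcm in the oldest.

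The cells came from larvae in the wandering phase of the third instar, raised at 25 °C without treatment, and each of the 2 experiments pooled the brains of 120 larvae. All carried E(spl)mgammaGFP together with SoxNGal4 and UAS-RedStinger over the balancer TM6B. The GFP marks NBs, SoxNGal4 drives the red reporter in medulla cells, and double positive cells were sorted, so that daughter cells that still hold both proteins can pass the gate. Each experiment gave a single 10x Genomics library, which makes 2 replicates of 1 condition, and no comparison between conditions exists. Values are unique molecular identifiers (UMIs), each standing for a captured transcript of whatever length, and a level is given as UMIs per 1000000 UMIs (CPM) of the summed cells of a class. Levels of different genes are therefore set side by side as captured molecules, with no correction for length.

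The libraries hold 42618478 UMIs in 6548 cells (experiment 1) and 116712060 UMIs in 5343 cells (experiment 2), and 9 cell barcodes occur in both. NBs were taken as cells with a dpn UMI and a mitochondrial share under 10%, less the 5 deepest cells, which left 776 and 2298 cells with median depths of 9845 and 37671 UMIs. The study further set aside outlying clusters of such cells, most without detectable mira, as not being medulla NBs. That step was not repeated, so such cells can be among the NBs here. An NB was put in the stage of the factor among hth, ey, slp1, D, tll and gcm that was highest in it relative to that factor's mean in its library, with at least 2 UMIs, and no ribosomal protein gene was used for this. The stages hold 24 to 178 cells in experiment 1 and 101 to 768 cells in experiment 2, and 264 and 307 NBs had no stage. All 7 genes of an NB marker list had UMIs in every stage, but dpn and mira were lowest at hth. The level of dpn was 139.2 and 105.3 CPM there against 282.5 to 598.9 CPM in the other stages, and that of mira 326.3 and 272.4 CPM against 494.7 to 997.5 CPM. A mira UMI was found in 35 of 57 and 69 of 101 hth cells. The hth stage of experiment 1 differs from its counterpart in experiment 2: nSyb, a gene of the synaptic vesicle, was at 169.6 CPM against 16.3 CPM, and 28 of its 57 cells held an nSyb UMI against 15 of 101 cells. Its 8 neuron markers summed to 4129 CPM, against 709.6 CPM in experiment 2. The counts of calls that use the hth stage are also given without cells that hold an nSyb UMI.

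Of the 93 genes, 79 were at 1000 CPM or more in NBs by the mean of the experiments, between 1137 and 8052 CPM with a median of 3570 CPM. A further 7 genes lay between 1 and 1000 CPM and 7 lay below 1 CPM. The 10 highest were RpL41, RpLP1, RpLP2, RpL27A, RpS15, RpS23, RpS29, RpS27A, RpS27 and RpL36. RpL41, which encodes a peptide of only 25 codons in Ensembl's BDGP6.54 annotation, stood at 9053 CPM in experiment 1 and 7052 CPM in experiment 2. RpLP1, an acidic protein of the stalk that binds elongation factors, was at 5776 and 6248 CPM, and RpLP2, its partner in the stalk, at 4893 and 5188 CPM. RpS27A, which is made as a fusion with ubiquitin, was at 4293 and 4474 CPM. These 4 genes keep their order in both experiments, whereas neighbours from rank 4 to rank 10 (mean levels of 4757 to 4349 CPM) lie closer to each other than the experiments do for RpS29, at 4065 and 4966 CPM. RpL15, RpL22, RpS6 and RpS27A are among 10 members whose exons overlap another gene on the same strand in that annotation, and the reads of such genes may not be told apart fully. Over the 79 genes the log2 ratio of experiment 2 to experiment 1 had a median of -0.03, and it was highest for RpS29, at 0.29.

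The 7 genes below 1 CPM were RpL10Aa, RpL22-like, RpL37b, RpL7-like, RpS10a, RpS28-like and RpS28a, which are paralogs or relatives of abundant members. RpS10a, known for its use in the germline, had 24 UMIs in NBs of experiment 1 and 45 in those of experiment 2, against levels of 3218 and 3555 CPM for its paralog RpS10b. RpL10Aa had no UMI in NBs of either experiment and a single UMI among all cells of experiment 1, while RpL10Ab was at 3686 and 3951 CPM. RpL37b and RpL22-like had no UMI in NBs of experiment 1 and 5 and 4 UMIs in those of experiment 2. These 7 genes were too low for the tests, so 86 members were tested in every comparison.

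Summed over the family, ribosomal protein UMIs made up 29.0% of the UMIs of hth stage NBs in experiment 1 and 33.0% in experiment 2. At the ey stage the share was 30.8% and 29.4%, at slp1 27.0% and 26.0%, and at D 26.1% and 25.3%. It was 22.8% and 22.7% at tll, and 22.8% and 23.0% at gcm. The experiments thus differ at the young end, where the share was highest at ey in experiment 1 and at hth in experiment 2, and lie within 1 percentage point of each other from D on. Without nSyb-positive cells the hth stage had 32.6% and 33.5%, and the nSyb-positive hth cells had 26.3% and 25.9%. Cells vary within a stage, with quartiles of 20.3% and 28.1% in hth cells of experiment 1, and of 21.5% and 24.4% in gcm cells of experiment 2.

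Single genes followed the total. Of the 79 members at 1000 CPM or more, 70 were highest at ey in experiment 1 and 76 were highest at hth in experiment 2. The lowest stage was tll or gcm for 74 of them in experiment 1 and for 75 in experiment 2. The ratio of a gene's highest to its lowest stage had a median of 1.37 (1.08 to 2.00) in experiment 1 and of 1.45 (1.10 to 2.48) in experiment 2.

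**Figure D1:**
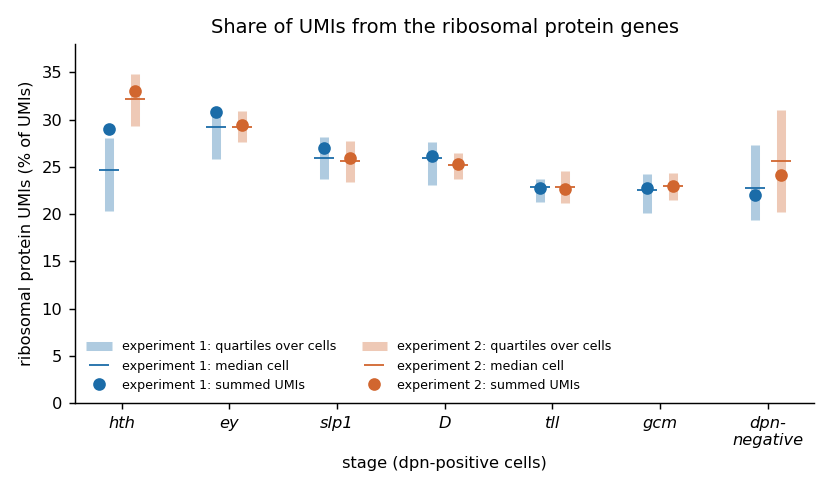
Share of UMIs (percent, vertical axis) from the 93 ribosomal protein genes for the NBs of each stage and for dpn-negative cells (horizontal axis), in experiment 1 (blue) and experiment 2 (orange). Circles are the share of the summed UMIs, dashes the median cell and bars the quartiles over cells. The share is 29.0% to 33.0% at hth and 22.7% to 23.0% at tll and gcm, with the experiments in different order at hth and at ey.

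In UMIs per cell the difference between stages was larger. The median hth cell of experiment 2 held 28470 ribosomal protein UMIs and 53342 other UMIs, and the median gcm cell 3738 and 12449. In experiment 1 the highest medians were those of the ey stage, at 9129 ribosomal protein UMIs, against 3090 at gcm. There the median hth cell held 1978 ribosomal protein UMIs and 8273 other UMIs, below the median gcm cell at 3090 and 10769. The order of hth and gcm was thus opposite in the 2 experiments. RNA content per cell and the share of it that was captured cannot be told apart in these counts. In experiment 1, 2710 further dpn-positive cells had a mitochondrial share of 10 to 20%, and in these the ribosomal protein share was 31.5% at hth, 33.7% at ey, 33.9% at slp1 and 33.2% at D. The kept NBs of experiment 1 went from 30.8% at ey to 27.0% at slp1 and 26.1% at D, a decline that the set-aside cells did not show. At tll and gcm under 10 such cells were found, so no value is given there.

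Gene by gene, the gcm stage was then compared with the hth stage, the oldest with the youngest NBs, in edgeR's quasi-likelihood test on UMIs summed for each experiment and stage. Of the 86 members tested, 72 fell at an adjusted p under 0.05 and 2 rose. Among all 7333 genes tested, 31.6% were lower and 26.9% higher (58.4% in all), so calls are frequent for any gene here. The median log2 fold change was -0.39 over the members and -0.10 over all genes. It was -0.28 in experiment 1 alone and -0.48 in experiment 2 alone. Both gcm values lay below both hth values for 77 of the 86 members and above them for 2. The share of all genes whose values lie apart in this way is not given, so this count has no background. Of the small subunit genes 31 of 36 fell (median -0.41), and of the large subunit genes 41 of 50 fell and 2 rose (median -0.39). The 8 neuron markers summed to 4599 and 3522 CPM in gcm NBs and to 4129 and 709.6 CPM in hth NBs. Most of the gcm sum was elav (4448 and 3416 CPM), while nSyb was at 6.44 and 2.27 CPM there, and the part of neuronal RNA in these differences was not tested.

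Apart from the low paralogs RpS19b and RpS5b, the values were lowest for RpL41 and RpS2. RpL41 was at 11614 and 10949 CPM in hth NBs, 11528 and 8505 at ey, 8061 and 6210 at slp1, 7661 and 5809 at D, 5971 and 4516 at tll, and 5810 and 4409 at gcm. The values of gcm and hth are far apart in both experiments, and the log2 fold change was -1.11 (SE 0.10, n = 2 experiments, adjusted p = 5.0e-06 in edgeR). RpS2, a protein of the small subunit near the path of the incoming mRNA, was at 4661 and 6211 CPM in hth NBs and at 2394 and 2710 CPM in gcm NBs. Its log2 fold change was -1.03 (SE 0.10, adjusted p = 1.1e-05 in edgeR). Both genes fell under each of 11 alternative settings. RpS20, of the head of the small subunit, was at 3897 and 5764 CPM at hth and 2459 and 2661 CPM at gcm, with a log2 fold change of -0.85 (SE 0.11).

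The 3 stalk genes RpLP0, RpLP1 and RpLP2 fell by less, with log2 fold changes of -0.37 (SE 0.09), -0.30 (SE 0.09) and -0.44 (SE 0.09). RpLP0 was at 2715 and 3383 CPM at hth and at 2132 and 2407 CPM at gcm, where the groups do not overlap. RpLP1 was at 5994 and 7832 CPM against 5211 and 5550 CPM, and its call was lost under 4 of 11 alternatives (adjusted p from 6.6e-05 to 0.372). Of the ubiquitin fusions, RpS27A had a log2 fold change of -0.44 (SE 0.08) and RpL40 of -0.62 (SE 0.09). The gene sta, of the small subunit, was at 3749 and 5311 CPM at hth and 3105 and 3956 CPM at gcm, a log2 fold change of -0.30 (SE 0.09) with groups that overlap.

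RpL31 and RpL15 went the other way. RpL31, a protein near the exit of the peptide tunnel, was at 4029 and 4313 CPM in hth NBs and at 4697 and 4655 CPM in gcm NBs, a log2 fold change of 0.22 (SE 0.07, adjusted p = 0.025 in edgeR). RpL15, of the core of the large subunit, was at 3537 and 3321 CPM against 4014 and 3637 CPM, a log2 fold change of 0.21 (SE 0.08, adjusted p = 0.032). These rises are small, and they kept their direction but missed the threshold under 8 of 11 alternatives for RpL31 (adjusted p from 0.0084 to 0.757 over the alternatives in edgeR and DESeq2) and under 9 of 11 for RpL15 (from 0.012 to 0.44). Without cells with an nSyb UMI neither was called, at 0.12 for RpL31 and 0.10 for RpL15. The next 3 members by fold were not called. RpS6, the target of S6 kinase, was at 2475 and 2504 CPM at hth and 2660 and 2354 CPM at gcm. RpS27, a zinc-binding protein of the small subunit, was at 4472 and 4693 CPM against 4522 and 4381 CPM, and RpL36 at 4419 and 4527 CPM against 4602 and 3947 CPM. For all 3 the change had opposite signs in the 2 experiments. In all, 12 members were called in neither direction, among them also RpL9, RpL10, RpL28, RpL32, RpL36A, RpL38, RpS3A and RpS5a.

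**Figure D2:**
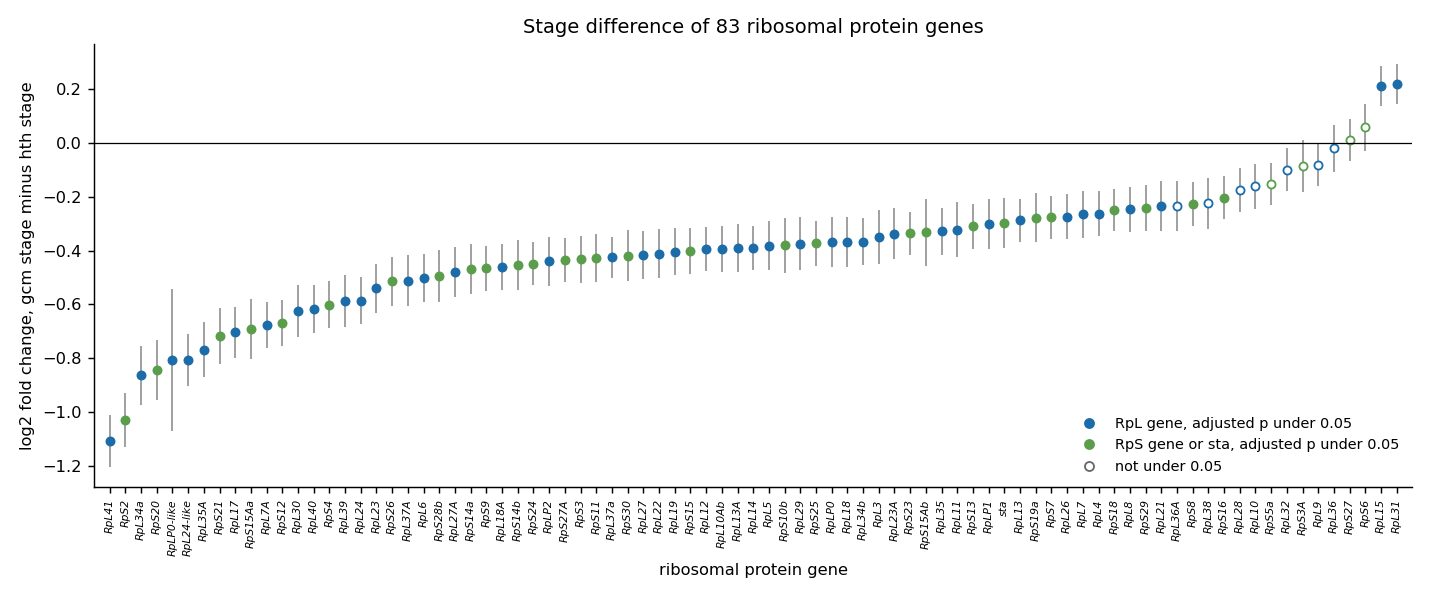
Log2 fold change between gcm stage and hth stage NBs (vertical axis) of 83 of the 86 tested members in order (horizontal axis), with bars of 1 SE from edgeR over 2 experiments. Blue marks large subunit and green small subunit genes, and open circles members not under an adjusted p of 0.05. The members not drawn include RpS19b (-8.40) and RpS5b (-1.27). RpL41 and RpS2 lie at the low end at -1.11 and -1.03, and RpL15 and RpL31 at the high end at 0.21 and 0.22.

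RpS19b, a paralog of RpS19a known for high expression in germline stem cells, showed the widest range of all members. It had 28 UMIs in the hth NBs of experiment 1 (22.4 CPM) and 648 UMIs in those of experiment 2 (90.3 CPM). It was at 32.9 and 24.9 CPM at ey, 14.5 and 9.64 at slp1, 17.5 and 8.90 at D, and 2.22 and 2.13 at tll. At gcm it had no UMI in experiment 1 and 1 UMI in experiment 2. In gcm NBs of experiment 1 a floor of 3 UMIs stands for 4.83 CPM, and the level of hth NBs was 4.64-fold above this floor. The 95% counting intervals there were 14.9 to 32.4 CPM at hth and 0 to 5.94 CPM at gcm, so the 4.64-fold is not a lower bound. In experiment 2 the ratio of hth to gcm was 477, with a 95% counting interval of 85.3 to 18870. The fall passed the test (adjusted p = 1.3e-04 in edgeR) and did so under all 10 alternatives that tested the gene. UMIs of RpS19b were found in 65.3% of the hth cells of experiment 2, with up to 40 UMIs in a cell, and in 58.0% of ey cells, 23.3% of slp1 cells, 19.8% of D cells, 4.13% of tll cells and 0.319% of gcm cells. Of the dpn-negative cells, with a median depth of 978 UMIs, 2.17% held a UMI, and gcm cells have a median depth of 16239 UMIs against 82090 UMIs at hth. In experiment 1 the share was 17.5% of hth cells, 45.3% of ey cells and 0% of 49 gcm cells (exact 95% binomial interval up to 7.25%). RpS19a was at 2600 and 2397 CPM at hth and 2274 and 1742 CPM at gcm, so RpS19b made up at most 3.63% of the UMIs of the pair in any stage.

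RpL24-like and RpLP0-like are relatives of ribosomal proteins whose yeast counterparts, Rlp24 and Mrt4, act in the assembly of the large subunit. RpL24-like was at 249.5 and 297.7 CPM at hth, 174.6 and 205.5 at ey, 137.1 and 160.5 at slp1, and between 126.3 and 167.9 CPM in all later stages. It fell early and then stayed low, with a log2 fold change of -0.50 (SE 0.09, adjusted p = 0.0026 in edgeR) from hth to ey and of -0.81 (SE 0.10) from hth to gcm, and was called under 11 of 11 alternatives for the latter. RpLP0-like was at 43.2 and 92.8 CPM at hth and 48.3 and 39.2 CPM at gcm. Its groups overlap, and the fall of -0.81 (SE 0.26, adjusted p = 0.022 in edgeR) was carried by experiment 2, since experiment 1 alone gave a rise of 0.25.

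**Figure D3:**
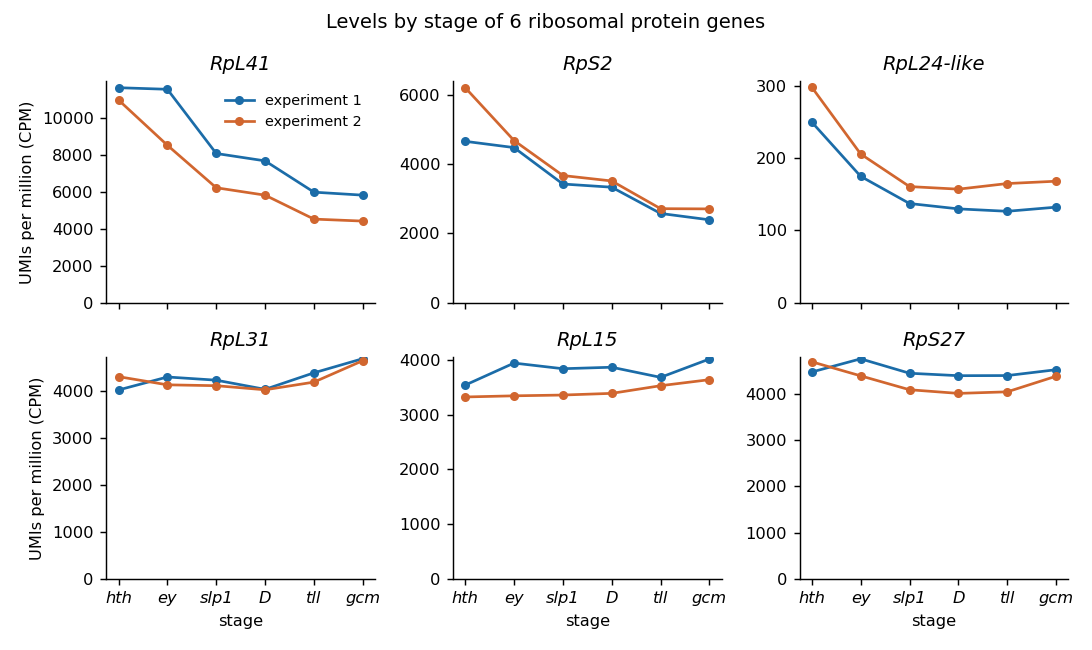
Levels in CPM (vertical axis) by stage (horizontal axis) of 6 members, in experiment 1 (blue) and experiment 2 (orange), each point being the summed cells of a stage. RpL41, RpS2 and RpL24-like are lower at gcm than at hth in both experiments, with RpL24-like at its low level from slp1 on, while RpL31, RpL15 and RpS27 stay between 3321 and 4757 CPM throughout.

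The same comparison was made with the ribosomal protein total as the size of each sum, which asks which members differ from the family. Of the 86 members 19 fell and 18 rose relative to the total (over all genes 21.5% were lower and 38.6% higher, 60.1% in all). The falls were thus near the share of all genes and the rises below it, so the counts do not set the family apart. Those that fell included RpS19b, RpL41 (-0.72, SE 0.04), RpS2 (-0.65, SE 0.05), RpL34a (-0.48, SE 0.09), RpS20 (-0.46, SE 0.06), RpL24-like (-0.42, SE 0.11) and RpL35A (-0.38, SE 0.06). Those that rose were led by RpL31 (0.60, SE 0.05), RpL15 (0.59, SE 0.06), RpS6 (0.44, SE 0.05), RpS27 (0.39, SE 0.04) and RpL36 (0.36, SE 0.05). The 3 stalk genes lay between -0.06 and 0.08 and were not called, and the quartiles over the members were -0.13 and 0.11. From ey to gcm 19 members fell and 16 rose relative to the total, where 14.9% of all genes were lower and 36.1% higher (50.9% in all). With no block for the experiment, 16 members instead of 37 were called (44.1% of all genes). Without cells with an nSyb UMI 22 members fell and 23 rose relative to the total, where 20.8% of all genes were lower and 48.3% higher. As a description over 84 genes (without RpS19b and RpS5b), the 2 experiments' log2 fold changes had a Pearson r of 0.76, and both share the sequence composition of each gene and the same stage rule.

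Other genes of translation were counted beside the family in the comparison of gcm with hth, where 31.6% of all genes were lower and 26.9% higher. Of 10 elongation and ribosome-bound factors, 7 fell and 0 rose from hth to gcm (median -0.44), and all 10 had negative values. eEF2, the factor of translocation, had a log2 fold change of -0.45 (SE 0.09), Rack1, a protein of the small subunit surface, of -0.38 (SE 0.09), and eEF1beta, an exchange factor, of -1.06 (SE 0.11). Of 9 nucleolar factors 7 fell and 1 (Nph) rose, with a median of -1.36. Fib, the rRNA methyltransferase, had a log2 fold change of -1.44 (SE 0.21) and Nop60B, the pseudouridine synthase, of -2.54 (SE 0.17). Of 72 mitochondrial ribosomal protein genes tested, 31 fell and 10 rose (median -0.32), with values from -2.06 to 1.10.

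Across all 6 stages, 78 of 86 members differed (58.7% of all genes). Taken step by step, few single steps passed the test. From hth to ey, RpL24-like fell and RpS15Ab rose, out of 16.1% of all genes lower and 12.5% higher (28.6% in all), with a median of -0.01 over the members. The experiments differ in this step, with medians of 0.15 (experiment 1) and -0.15 (experiment 2). From ey to slp1 all 86 members had negative values (median -0.26, against -0.01 over all genes), and 4 were called, RpL41 (-0.57, SE 0.09), RpS20 (-0.48, SE 0.11), RpS2 (-0.46, SE 0.10) and RpL24-like (-0.44, SE 0.09), where 1.75% of all genes were lower and 1.13% higher (2.88% in all). At an unadjusted p under 0.05, 73 members were lower in this step, and the share of all genes at that threshold is not given. The median of the members in this step was -0.27 in experiment 1 and -0.26 in experiment 2. From slp1 to D no member was called (0.0545% of all genes were lower), none had an unadjusted p under 0.05, and DESeq2 called 0 members in either direction. From D to tll 3 members fell, RpL34a (-0.58, SE 0.11), RpS2 (-0.36, SE 0.10) and RpL41 (-0.35, SE 0.09), where 4.17% of all genes were lower and 4.39% higher (8.56% in all), and the median was -0.17. From tll to gcm no member was called in edgeR (1.53% of all genes were lower and 0.627% higher, 2.15% in all). In this step 80 of 86 had positive values, with medians of 0.095 in experiment 1 and 0.13 in experiment 2. Over all genes these medians were -0.06 and 0.04. Of the members, 12 had an unadjusted p under 0.05, 11 of them higher, and the share of all genes at that threshold is not given. DESeq2 called 1 member higher.

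The hth stage weighs on the first and the longest of these comparisons, so they were repeated after the data were seen. Without cells with an nSyb UMI, 80 members fell from hth to gcm and 0 rose, where 34.5% of all genes were lower. From hth to ey 15 fell and 1 rose, which for the falls is near the share of all genes (18.1% lower). From ey to slp1 73 fell (9.41% of all genes lower) and from D to tll 30 fell (8.65% of all genes lower). All 72 members that fell in the comparison of all cells also fell without these cells. From ey to gcm, which leaves the hth stage out, 70 members fell and 0 rose (23.8% of all genes lower, 46.6% called in all), with medians of -0.41 in experiment 1 and -0.33 in experiment 2. Both comparisons use the gcm sums, and 69 members fell in both. When a cell was put in the stage of its latest factor, 6 of 86 members fell from hth to gcm (median -0.20), among them RpL41, RpS2, RpS19b and RpL24-like, a smaller share than that of all genes (21.7% lower). With no block for the experiment 40 members fell, where 23.1% of all genes were lower.

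Paralogs were compared as the share of a pair's UMIs, which does not depend on the size of a sum. Reads of near-identical copies that map to both are not counted, so the levels of pairs are uncertain while the change of a share across stages of the same library is less so. RpL34a made up 22.9% and 21.8% of the UMIs of RpL34a and RpL34b in hth NBs, 25.8% and 24.4% at slp1, 25.1% and 25.0% at D, 18.8% and 20.9% at tll, and 16.5% and 17.2% at gcm. The exact 95% binomial intervals of D and gcm are apart in both experiments, and these intervals cover counting error only. RpL34a itself was at 765.4 and 895.2 CPM at hth and 404.2 and 471.6 CPM at gcm (log2 fold change -0.86, SE 0.11, adjusted p = 7.5e-05 in edgeR), and RpL34b at 2578 and 3209 CPM against 2039 and 2273 CPM (-0.37, SE 0.09).

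RpS15Ab, the less abundant gene of its pair, made up 4.97% and 4.92% of the UMIs of the pair at hth, 6.69% and 6.58% at ey, 7.66% and 8.69% at D and 5.98% and 6.50% at gcm. The share was lowest at hth in both experiments and highest at tll in experiment 1 (7.85%) and at D in experiment 2. Its level was 154.4 and 191.3 CPM at hth, 233.4 and 217.1 CPM at ey, and 124.0 and 140.6 CPM at gcm. The rise from hth to ey passed the test (0.39, SE 0.12, adjusted p = 0.027 in edgeR). Under 5 of 11 alternatives no member was called higher in this step: with no block, with a mitochondrial limit of 20%, with a mira UMI required, in thinned cells and with the latest factor as stage. The fall from hth to gcm (-0.33, SE 0.12, adjusted p = 0.040) missed the threshold under 6 of 11 alternatives (adjusted p from 5.8e-04 to 0.937) and turned to 0.03 when the latest factor set the stage. RpS15Aa fell from 2954 and 3697 CPM at hth to 1948 and 2021 CPM at gcm (-0.69, SE 0.11).

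RpS14a and RpS14b, which encode a protein of the platform of the small subunit, had similar fold changes. RpS14b made up between 14.8% and 18.2% of the UMIs of the pair in every stage of both experiments, and the genes had log2 fold changes of -0.45 (SE 0.09) for RpS14b and -0.47 (SE 0.09) for RpS14a from hth to gcm. RpS5b, a paralog of RpS5a known from the ovary, was at 14.4 and 5.29 CPM at hth, 5.97 and 12.4 at ey, 3.23 and 13.5 at slp1, and 1.61 and 4.16 at gcm. Its order over stages differs between the experiments, and the log2 fold change of -1.27 (SE 0.83, adjusted p = 0.21 in edgeR) was not called. RpS5a, at 2848 and 2840 CPM at hth and 2549 and 2389 CPM at gcm, was not called either (-0.15, SE 0.08). The other abundant partners, RpL10Ab (-0.39), RpL22 (-0.41), RpL37a (-0.43), RpL7 (-0.27), RpL24 (-0.59), RpS10b (-0.38) and RpS28b (-0.49), fell, each with an SE of 0.08 to 0.10. RpL7 missed the threshold under 4 of 11 alternatives (adjusted p up to 0.68 over those in edgeR and DESeq2). RpL22 and RpL24 missed it under 2, and RpL10Ab, RpL37a, RpS10b and RpS28b under 1.

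**Figure D4:**
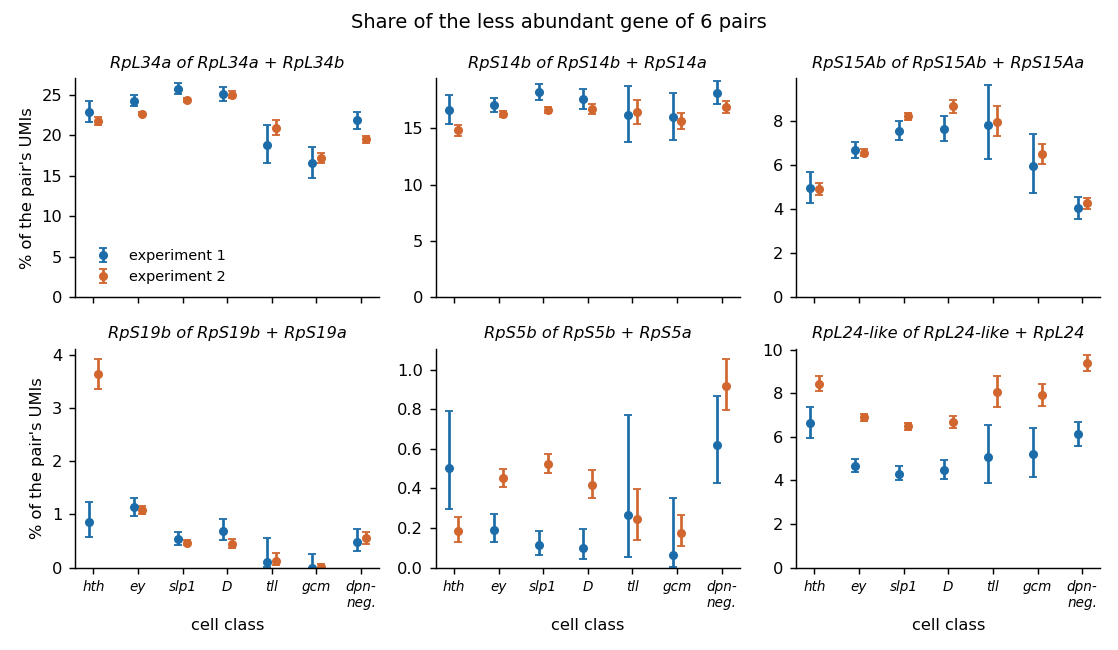
Share of a pair's UMIs (percent, vertical axis) that belongs to the less abundant gene, for 6 pairs, in NBs of each stage and dpn-negative cells (horizontal axis), in experiment 1 (blue) and experiment 2 (orange), with exact 95% binomial intervals of counting error. The share of RpL34a is lowest at gcm, at 16.5% and 17.2%, that of RpS15Ab in dpn-negative cells, at 4.05% and 4.27%, and that of RpS19b reaches 0% and 0.0109% at gcm.

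Sorted cells without a dpn UMI and with a mitochondrial share under 10% numbered 495 in experiment 1 and 1844 in experiment 2. They are shallow, with median depths of 2525 and 978 UMIs, so NBs whose dpn was missed can be among them. Their 8 neuron markers summed to 6580 and 5168 CPM and their 7 NB markers to 768.5 and 693.9 CPM, against 1520 to 4200 CPM in the stages. The ribosomal protein share of their summed UMIs was 22.0% and 24.2%. In experiment 1 this is just below the tll and gcm stages (22.8% each), and in experiment 2 it lies between gcm (23.0%) and D (25.3%). The median cell had 22.8% and 25.7%. It was 21.4% and 23.6% in those with 2 or more UMIs of elav, and 25.6% and 27.8% in those with none, whose median depths were 1720 and 723.5 UMIs. The 8 glia markers summed to 6896 and 7873 CPM in all dpn-negative cells and to 49818 and 61473 CPM in those with no elav UMI, against 472.7 to 1132 CPM in the stages, and the part of glial RNA in the comparisons of dpn-negative cells was not tested.

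Against the mean of the 6 stages, each weighted equally, 41 of 86 members were lower in dpn-negative cells and 2 were higher in edgeR. Among all 7932 genes tested 24.4% were lower and 34.6% higher (59.0% in all). The median over the members was -0.18, and that over all genes 0.05. It was -0.23 in experiment 1 alone and -0.10 in experiment 2 alone. Large subunit genes were called lower in 30 of 50 cases and small subunit genes in 11 of 36 cases, with medians of -0.19 and -0.15, and the difference between the subunits was not tested. The 3 stalk genes were all lower, from -0.19 to -0.24. They missed the threshold under 5 of 9 alternatives for RpLP0 and for RpLP1, and under 4 of 9 for RpLP2. The adjusted p ran up to 0.899, 0.903 and 0.515 over the alternatives in edgeR and DESeq2. When all cells were thinned to 2000 UMIs and shallower cells left out, 1 member was lower (9.87% of all genes), 1 was higher (23.4% of all genes) and the median was -0.02. DESeq2 called 12 lower (19.6% of all genes) and 4 higher (36.3% of all genes), and the fit with no block 8 lower (14.8% of all genes).

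RpS15Ab had the lowest value of all members in this comparison. It was at 93.0 and 109.6 CPM in dpn-negative cells and at 209.4 and 215.9 CPM in NBs, a log2 fold change of -0.88 (SE 0.10, adjusted p = 1.0e-05 in edgeR) that was called under 9 of 9 alternatives. Its share of the pair with RpS15Aa was 4.05% and 4.27%, against 4.92% to 8.69% in the 6 stages, and RpS15Aa itself was not called (-0.12, SE 0.09). In dpn-negative cells with no elav UMI it was at 152.4 and 163.3 CPM, and in those with 2 or more at 79.8 and 102.1 CPM. RpLP0-like (-0.51, SE 0.19, adjusted p = 0.038), RpS19a (-0.36, SE 0.07), RpL34a (-0.34, SE 0.08) and RpS5a (-0.32, SE 0.06) followed. Of 9 alternatives, RpLP0-like missed the threshold under 4, RpS19a under 3, RpL34a under 2 and RpS5a under 1. The adjusted p ran up to 0.267, 0.163, 0.798 and 0.244 over the alternatives in edgeR and DESeq2. RpS19a was at 1878 and 1587 CPM in dpn-negative cells and at 2655 and 2099 CPM in NBs.

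RpS5b and RpL24-like were the members called higher. RpS5b was at 12.9 and 19.6 CPM in dpn-negative cells and at 5.16 and 11.4 CPM in NBs, a log2 fold change of 1.38 (SE 0.42, adjusted p = 0.015 in edgeR). It rests on 34 UMIs in 17 cells of experiment 1 and 199 UMIs in 82 cells of experiment 2, with up to 32 UMIs in a cell. RpL24-like was at 172.3 and 240.2 CPM against 152.5 and 184.2 CPM, a log2 fold change of 0.29 (SE 0.07, adjusted p = 0.0043). The call of RpL24-like was lost under 3 of 9 alternatives (adjusted p from 3.4e-07 to 0.19), and that of RpS5b with no block (adjusted p = 0.057). RpS14b (0.11, SE 0.06) and RpS24 (0.05, SE 0.06) had positive values and were not called, and RpL41 was at 7487 and 6867 CPM with a value of 0.02 (SE 0.08). RpS19b was lower in level, at 9.11 and 8.77 CPM in dpn-negative cells against 20.3 and 19.4 CPM in NBs. Its fitted value of 0.41 (SE 0.54) was not called and has the other sign, since it is set against the mean of the stages on the log scale, where the gcm sums with 0 and 1 UMI weigh as much as the rest.

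Relative to the ribosomal protein total, 10 of 86 members were lower and 13 higher in dpn-negative cells. Over all genes 15.9% were lower and 38.6% higher (54.4% in all), so both counts were below the share of all genes. RpS15Ab (-0.72, SE 0.07), RpS19a (-0.20, SE 0.04) and RpS5a (-0.15, SE 0.04) were lower than the family, and RpS14b (0.27, SE 0.05), RpS24 (0.21, SE 0.04), RpL41 (0.18, SE 0.03) and RpS14a (0.17, SE 0.05) higher. With no block 3 members were called (40.9% of all genes). Of the other genes of translation, on the scale of all UMIs (24.4% of all genes lower and 34.6% higher), 9 of 10 elongation and ribosome-bound factors were lower and 1 was higher, 35 of 72 mitochondrial ribosomal protein genes were lower and 4 higher, and 2 of 9 nucleolar factors were lower. The elongation factor that was higher was eEF1alpha2, whose mammalian counterpart is the form used in neurons and muscle, at a log2 fold change of 6.70 (SE 0.36).

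**Figure D5:**
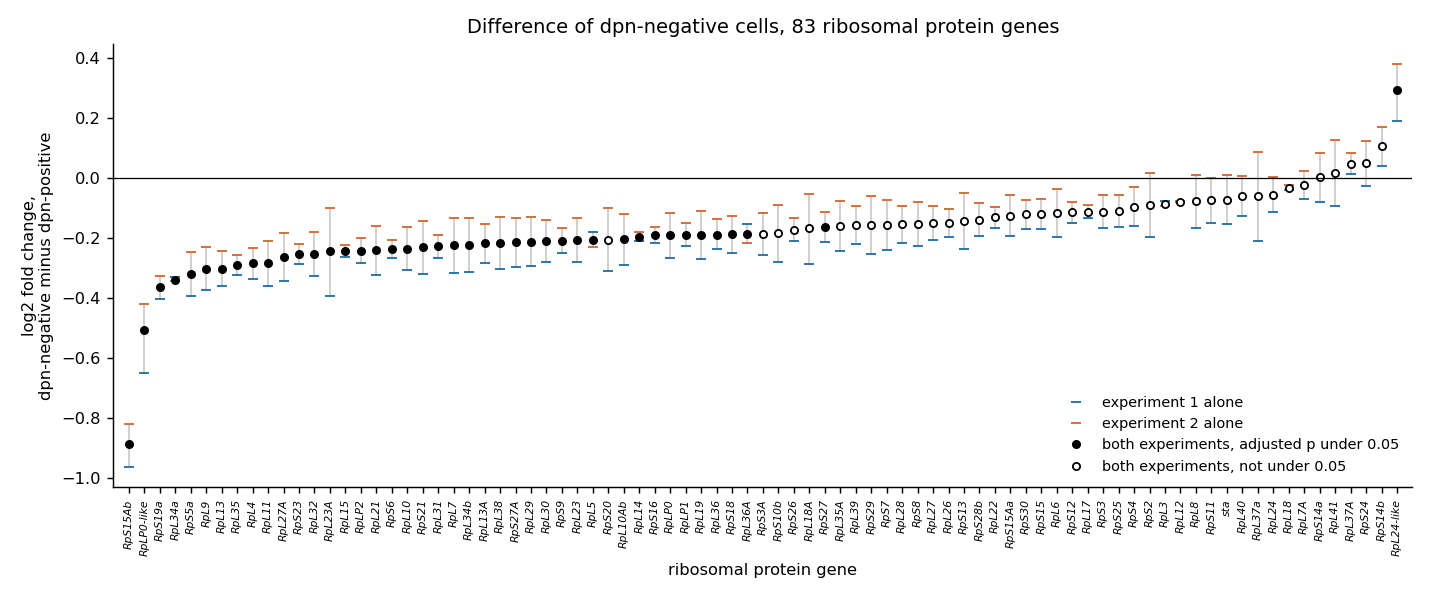
Log2 fold change between dpn-negative cells and the mean of the 6 NB stages (vertical axis) of 83 of the 86 tested members in order (horizontal axis). Circles are the edgeR fit of both experiments, filled where the adjusted p is under 0.05, and the blue and orange dashes are experiment 1 and experiment 2 alone. The members not drawn include RpS19b and RpS5b (1.38), and of those drawn RpS15Ab (-0.88) lies lowest and RpL24-like (0.29) highest.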

How the data were processed

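The data are single cell RNA-seq of sorted medulla NBs (2 libraries). The authors aligned reads with Cell Ranger (3.0.1 for experiment 1 and 3.1.0 for experiment 2, per the file headers) to an Ensembl BDGP6 reference and deposited raw UMI counts of called cells. Reads that map to several genes are not counted. The submitters' processing notes also name Seurat 3.2.3. No doublet caller was run here.

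Filters on dpn, on UMIs of the 38 mitochondrial genes and on the 5 deepest cells follow the study and left 3074 cells, called NBs here. The outlying clusters that the study then set aside as not medulla NBs were not removed. UMIs were summed by experiment and stage (at least 10 cells) and tested in edgeR 4.0.16 (R 4.3.3) with TMM normalization (factors 0.921 to 1.08), its filter on low counts, quasi-likelihood tests and Benjamini-Hochberg adjustment over all genes. The stage fit has 12 sums and 5 residual degrees of freedom, the fit with dpn-negative cells 16 sums and 7. The experiment was a block: deviations of genes from the stage means correlated within an experiment for each of 15 pairs of stages (0.139 to 0.669), and cells of an experiment share a library. Stage sums of 1 library are not separate cultures. SE is the log2 fold change over the root of F. DESeq2 1.42.0, other filters on cells and genes, other stage rules and single experiments were alternatives. The fits were also run on simulated counts, drawn independently between sums and with the same spread for all genes, unlike the data. The outcome is not given here, and the calls above do not rest on it. Python 3.11.15, numpy 2.4.6, scipy 1.17.1 and pandas 2.3.3 were used.

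The genes named are the 10 highest in NBs, the 5 at each end of each comparison, all paralogs and members that were not tested, to which RpS20, RpL35A, RpL40, sta and the members not called were added after their values were seen. The members and the lists were chosen with earlier results of these data known. A member that is not reported here by name is counted in the totals and left out of the plots.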

Additional observations from a re-analysis of the deposited data

How the results depend on the processing

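With 2 libraries and many settings, counts of calls move more than medians. The share of all genes called moves with the setting too. It is not given beside the counts below, so these do not measure a change of the family alone. Without the replicate block, 40 members instead of 72 fell from hth to gcm, 42 instead of 78 differed among stages, and 0 fell in each of the steps from hth to ey, ey to slp1 and D to tll. In that fit 8 members were lower in dpn-negative cells, and relative to the family total 16 were called between gcm and hth and 3 in dpn-negative cells. With the latest factor as stage, 6 fell from hth to gcm (median -0.20), 4 differed among stages, 0 fell in the 3 early or middle steps, the median from hth to ey moved from -0.01 to 0.21, and the medians from D to tll and tll to gcm turned to 0.085 and -0.16. In cells low in G2 and M genes, 1 fell from ey to slp1, 0 from D to tll, and the median from tll to gcm turned to -0.014 (without the tll sum of experiment 1, which had under 10 cells).

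For the step from hth to ey, 2 members fell with DESeq2, with library size only, with every gene that has a UMI and with a mira UMI required, 0 with thinned cells, and 15 without nSyb-positive cells, against 1. For ey to slp1, 36 fell with DESeq2, 2 with library size only, 0 with a mitochondrial limit of 20%, 12 with a mira UMI required, 1 with thinned cells and 73 without nSyb-positive cells, against 4. For D to tll, 8 fell with DESeq2, with every gene and with a mira UMI required, 7 with library size only, 6 with at least 5000 UMIs, 1 with the limit of 20% and with thinned cells, and 30 without nSyb-positive cells, against 3. In dpn-negative cells, 12 members were lower with DESeq2 (median -0.083), 67 with every gene (median -0.29), 6 with the limit of 20% and 1 with thinned cells (median -0.025), against 41, and relative to the total 13 and 5 were called with every gene and with the limit of 20%, against 23. DESeq2 and the limit of 20% each moved the median of all genes by -0.11 between gcm and hth.

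Without replicate 1 or without replicate 2, the median of the members ran from -0.48 to -0.28 between gcm and hth and from -0.23 to -0.10 in dpn-negative cells. Relative to the total the latter was -0.0032 to 0.0015. RpLP0-like ran from -1.21 to 0.25 between gcm and hth. RpS15Ab had 0.028 with the latest factor, and RpS27 had 0.033 in dpn-negative cells thinned to 2000 UMIs. For the genes named in the text, 670 of their values under alternatives kept direction and side of the threshold, 136 missed it and 19 newly passed it. A further 3 values were classed as reversed and 9 as moved. The cause of these shifts was not tested. Depth limits the 7 members below 1 CPM and RpS5b.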
